A study of Citrus junos with 4 samples.

Results

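Aquaporins are channel proteins that let water, and in some subfamilies small uncharged solutes, pass through membranes. The 37 genes described here are those of the 29406 in the deposited expression table whose description contains the word aquaporin. They were measured in mature leaves of Ziyang xiangcheng (*Citrus junos*), a citrus rootstock, as the diploid (2×) and as the doubled diploid (4×), in which the genome of the diploid was doubled without crossing. Each ploidy was represented by 2 libraries, named 2×-1, 2×-2, 4×-1 and 4×-2, and each library came from leaves pooled from 4 untreated plants, so a pool and not a plant is the replicate. The leaves were 3 to 5 months old and came from near the top of greenhouse seedlings. All plants were of one cultivar, and the 4× plants descended from spontaneous doubling within it.

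Plant aquaporins are grouped by sequence and by the membrane they occupy. Plasma membrane intrinsic proteins (PIP) carry water into and out of the cell, and in maize and other species PIP1 proteins depend on PIP2 partners to reach the plasma membrane. Tonoplast intrinsic proteins (TIP) sit in the vacuole membrane and equilibrate water between vacuole and cytosol. Nodulin-26-like intrinsic proteins (NIP) are known for boric acid, silicic acid or glycerol, and small basic intrinsic proteins (SIP) are found in the endoplasmic reticulum in *Arabidopsis*. In leaves, PIPs and TIPs are known for the flow of water from the veins through the mesophyll. By the first subfamily name in their descriptions, 16 of the 37 genes were PIPs, 9 TIPs, 8 NIPs and 3 SIPs. The remaining gene, Cs9g19340, is described as possibly aquaporin-related, carries no subfamily name and is matched to a bacterial membrane protein, so it was kept apart from the other 36. Descriptions list matches in other species, so a name such as PIP1-2 says which protein was named first in that description and not that the citrus gene is its ortholog.

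The unit is RPKM, the uniquely mapped reads of a gene scaled to the length of the gene and to the reads of the library. The library totals recovered from the values were 9324856 reads in 2×-1, 9545185 in 2×-2, 9363285 in 4×-1 and 8874306 in 4×-2, and 1 read on a gene of 1 kb was worth 0.105 to 0.113 RPKM. As a check of the tissue, the 17 genes described as chlorophyll a-b binding proteins or small subunits of RuBisCO summed to 15111 and 18491 RPKM in 2× and to 17810 and 18049 RPKM in 4×, and 1 of the 15 tested was called, lower in 4×. The 9 genes with root words in their description (Casparian strip membrane protein, root cap) summed to 34.2 to 37.3 RPKM per library. Only 3 of the 9 hold such a word in their leading name, the first of the description. These 3 summed to 0 to 0.728 RPKM per library, and 0 were tested. The 26 genes with guard cell words summed to 155 to 158 RPKM in 2× and 145 to 156 RPKM in 4×, 4 of them had no read, and 0 of the 11 tested were called (limma), with 0 at an unadjusted p below 0.05. Most of this sum came from genes whose leading name holds no guard cell word. The 8 with such a word in their leading name summed to 5.96 and 7.17 RPKM in 2× and 5.71 and 7.60 RPKM in 4×. Only 2 of these 8 were tested, and 0 were called. Those with phloem words (152, of which 19 had no read) summed to 1259 and 1400.0 RPKM in 2× and to 1305 and 1313 RPKM in 4×, and 0 of the 48 tested were called, with 2 at an unadjusted p below 0.05. The 8 with a phloem word in their leading name summed to 1089 and 942 RPKM in 2× and 996 and 993 RPKM in 4×, and 0 of the 7 tested were called. Xylem words were found in 89 genes, 20 of them without a read. Their sums were 5608 and 5263 RPKM in 2× and 5616 and 5753 RPKM in 4×, with 4×-1 nearly equal to 2×-1. Of the 31 tested, 2 genes were called higher and 1 lower, against 0.396% and 0.990% of all tested genes. At an unadjusted p below 0.05 there were 13 of these 31, 11 higher and 2 lower in 4×, against 13.3% of all tested genes. Many of these hold no xylem word in their leading name. A narrower list, made after the values were seen, holds the 30 genes with a xylem word in their leading name. These 30 summed to 186 and 191 RPKM in 2× and 306 and 296 RPKM in 4×. Of the 6 tested genes of that narrower list, 5 had an unadjusted p below 0.05, all 5 higher in 4×. Limma called 2 of the 6, against 1.39% of all tested genes, and the median log2 fold change was 0.68. The narrower list leaves out the 2 genes of the wider list that were lower in 4× at an unadjusted p below 0.05. The part of xylem tissue in the aquaporin values was not tested. In bulk leaves, fewer cells of a type and less RNA per cell cannot be told apart, and RPKM carries no information on the RNA of a whole cell.

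The aquaporin pool of the leaf was dominated by 5 genes, 3 of the PIP2 type, 1 PIP1 and 1 TIP. Together they held 77.5% to 80.2% of the summed RPKM of the 36 classified members in every library. The highest was Cs7g25610, named PIP2-5 first, at 272 and 229 RPKM in 2× and at 257 and 218 RPKM in 4×. It exceeded 98.7% of the 24073 genes with a value above 0, and its lowest library lay above the highest library of every other aquaporin. Cs7g31420, a PIP1-2, followed with 170.5 and 131 RPKM in 2× and 156 and 158 RPKM in 4×. The TIP1-1 gene orange1.1t03005, the main tonoplast channel of these leaves by level, had 139.9 and 114 RPKM in 2× and 138 and 120.0 RPKM in 4×. Cs8g16640, a PIP2-2, had 126 and 95.8 RPKM in 2× and 104 and 95.8 RPKM in 4×. The ranges over the libraries overlapped for Cs7g31420 and orange1.1t03005, and for orange1.1t03005 and Cs8g16640. Within each library, however, the order of these genes was the same. The order was not tested. Next, Cs8g02530, a PIP2-7, had 53.1 and 66.7 RPKM in 2× and 81.9 and 83.0 RPKM in 4×, below every library of the other 4 genes.

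**Figure D1:**
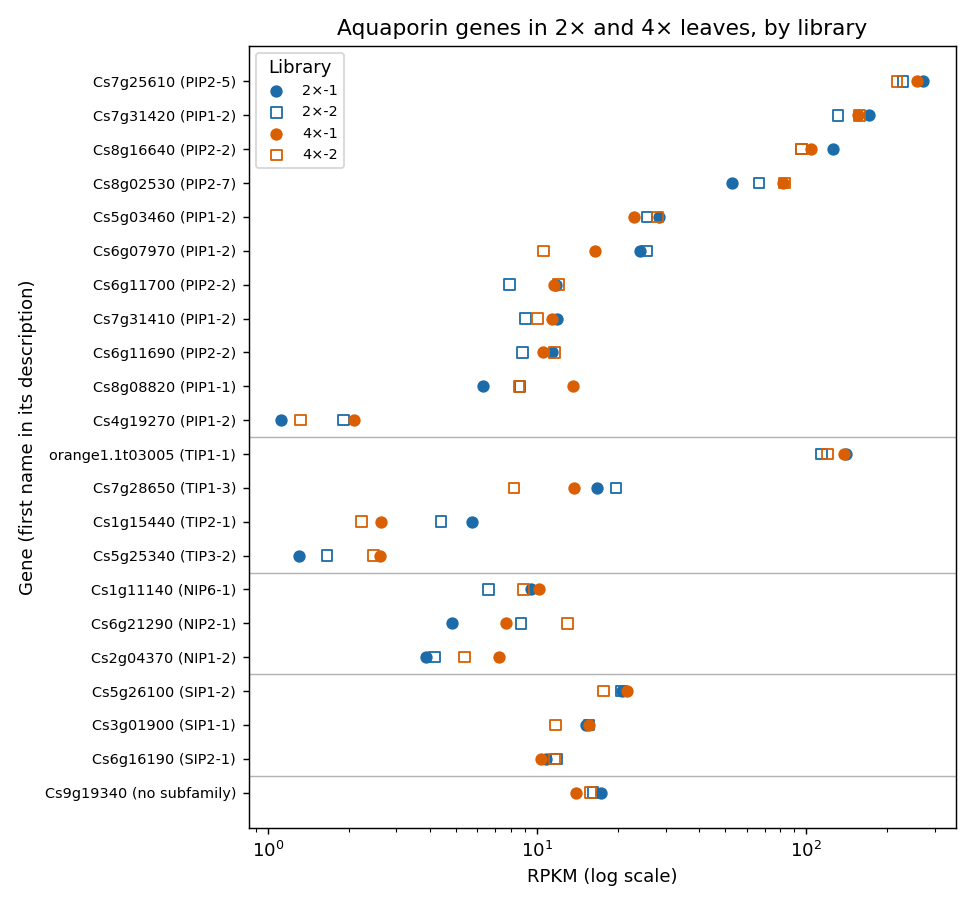
RPKM of the 22 tested aquaporin genes on a log axis, 1 point per library (2× blue, 4× orange; filled circles replicate 1, open squares replicate 2), with lines between PIP, TIP, NIP, SIP and the unclassified gene. The levels run from 1.12 RPKM (Cs4g19270 in 2×-1) to 272 RPKM (Cs7g25610 in 2×-1), and 2× and 4× points overlap in 15 of the 22 genes.

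The question put to the data was which aquaporins differ between 4× and 2× leaves. Only members whose 4 values averaged 1 RPKM or more entered the test, which left 22, and limma was fitted on log2(RPKM + 0.5) to all 16157 genes that reached this level. Fold changes are given on that scale, 4× minus 2×, where the change of weakly expressed genes comes out too small. At an adjusted p below 0.05 limma called 0 of the 22 aquaporins, against 1.39% of all tested genes (0.396% higher and 0.990% lower in 4×), and 7 of the 22 had an unadjusted p below 0.05, against 13.3% of all tested genes. Of these 7 genes, 4 had higher and 3 lower values in 4×. The log2 fold change was below 0 in 10 of the 22, against 55.6% of all tested genes, and reached 0.5 in size in 7, against 7.35%. The median of the 22 was 0.03, beside -0.03 for all tested genes, and the median size of the change without its sign was 0.18 beside 0.14. The 2× and 4× libraries did not overlap in 7 of the 22 members, 3 with both 4× libraries above and 4 with both below, whereas this was the case for 43.7% of all tested genes (17.5% above and 26.2% below). Limma voom on reads recovered from the same values called 1 of the 22, beside 2.50% of all tested genes.

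None of the 4 most abundant aquaporins passed the test, and their libraries overlapped between the ploidies. For Cs7g25610, which rests on 3564 to 4684 reads per library, the log2 fold change was -0.08, and its 95% interval reached from -0.38 to 0.23. The corresponding values were 0.07 (-0.23 to 0.37) for Cs7g31420, 0.03 (-0.26 to 0.32) for orange1.1t03005 and -0.13 (-0.45 to 0.18) for Cs8g16640. The limma adjusted p-values of these genes were 0.760 to 0.955. The 2× pools of these genes themselves lay 1.19 to 1.32 times apart. In all of these 4 genes 2×-1 was the higher of the 2× libraries. Over the 22 tested members this was so in 12, and in Cs8g02530, the next in level, 2×-2 was higher.

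**Figure D2:**
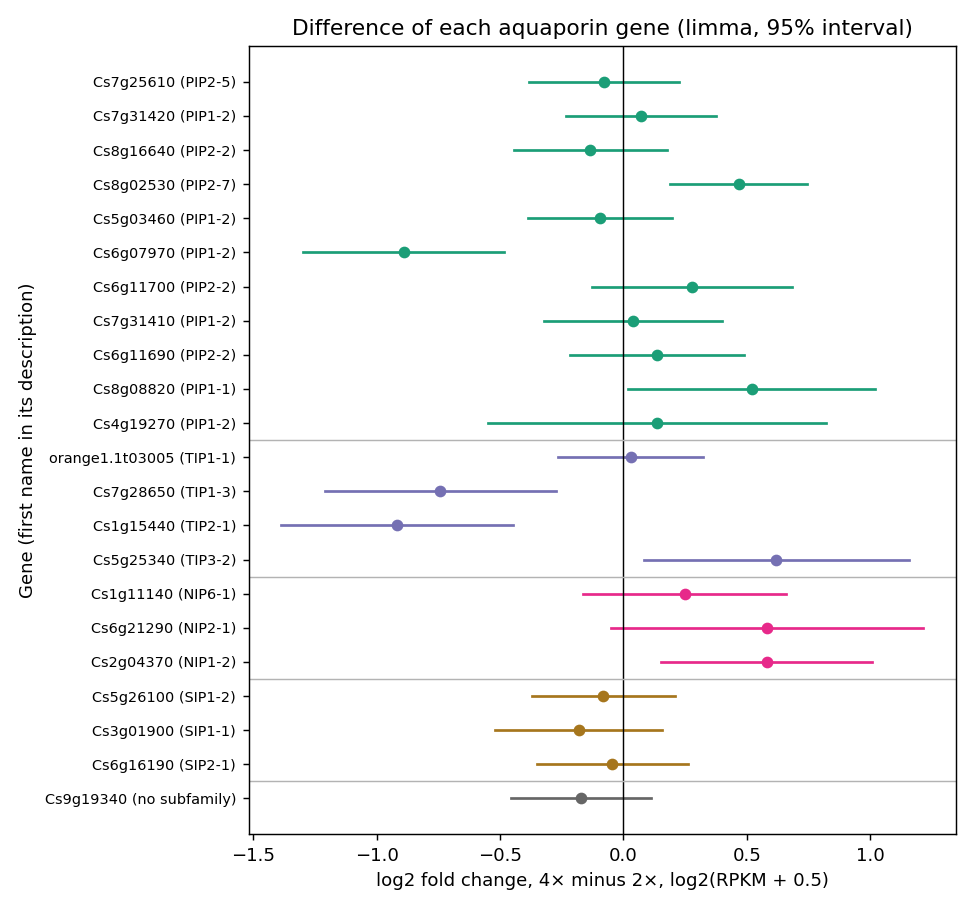
Log2 fold change of each tested aquaporin (4× minus 2×, log2(RPKM + 0.5)) with its unadjusted 95% interval from limma, coloured by subfamily, in the order of the plot of values by library. The interval includes 0 in 15 of the 22 genes, and the largest differences downward are those of Cs1g15440 (-0.92) and Cs6g07970 (-0.89).

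Among the PIPs, which let water through the plasma membrane, 11 of 16 genes were tested and 3 had an unadjusted p below 0.05, against 13.3% of all tested genes. Cs6g07970, named PIP1-2 first, came closest to a call of all aquaporins. It had 24.1 and 25.5 RPKM in 2× and 16.4 and 10.5 RPKM in 4×, from 324, 351, 221 and 135 reads. Both 4× libraries were thus below both 2× libraries, and the 4× pools were 1.55 times apart. The 2× mean was 24.8 ± 0.994 RPKM (SD, n = 2) and the 4× mean 13.5 ± 4.11 RPKM (SD, n = 2), and limma gave -0.89 (SE 0.18) as the log2 fold change, adjusted p = 0.0509. The call turned on the settings. Voom on recovered reads gave an adjusted p of 0.0100 for the same genes and 0.108 when all 24073 detected genes were included. Limma without a filter gave 0.319, and with a mean of at least 3 RPKM it gave 0.0368. Leaving out 4×-1, the higher of the 4× pools, moved the log2 fold change to -1.19 (limma adjusted p = 0.00195, with the lone 4× library assumed to vary like the 2× libraries), and leaving out 4×-2 moved it to -0.58 (0.108).

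Cs8g02530, the PIP2-7 gene, went the other way. From 53.1 and 66.7 RPKM in 2× to 81.9 and 83.0 RPKM in 4×, both 4× libraries lay above both 2× libraries, with 629 and 809 reads in 2× and 974 and 936 reads in 4×. Its means were 59.9 ± 9.63 and 82.5 ± 0.807 RPKM (SD, n = 2 each), a ratio of 1.38. Limma put the log2 fold change at 0.47 (SE 0.12, interval 0.19 to 0.75), with an adjusted p of 0.121. Cs8g08820, whose description names both PIP1 and PIP2 proteins, had 6.29 and 8.64 RPKM in 2× and 13.6 and 8.57 RPKM in 4×. Its groups overlapped, because 4×-2 was below 2×-2, and the log2 fold change of 0.52 had a limma adjusted p of 0.355. It was 0.20 without 4×-1 and 0.84 without 4×-2 (limma adjusted p = 0.744 and 0.0950).

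The other tested PIPs overlapped between the ploidies. Cs5g03460, a PIP1-2, had 28.4 and 25.6 RPKM in 2× and 22.8 and 27.9 RPKM in 4× (log2 fold change -0.09, limma adjusted p = 0.843). Cs6g11690 and Cs6g11700, both named PIP2-2 and with neighbouring identifiers, had similar levels, at 8.81 to 11.6 RPKM and 7.89 to 11.98 RPKM, and log2 fold changes of 0.14 and 0.28. Cs7g31410, a PIP1-2 whose identifier is next to that of the abundant Cs7g31420, had 9.06 to 11.9 RPKM, and so was expressed at a small part of the level of its neighbour in every library. Cs4g19270, a PIP1-2 with only 8 to 15 reads per library, had 1.12 to 2.09 RPKM, and its interval of -0.55 to 0.82 includes 0. Reads that mapped to more than 1 place were not counted, so near-identical neighbours may have lost reads.

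Of the TIPs, the channels of the vacuole membrane, 4 of 9 genes were tested and 3 had an unadjusted p below 0.05, against 13.3% of all tested genes. In *Arabidopsis*, some but not all TIP1 and TIP2 proteins are found in vacuoles of vegetative tissue, and TIP3 proteins in seeds. Cs1g15440, named TIP2-1 first, had 5.72 and 4.39 RPKM in 2× and 2.63 and 2.22 RPKM in 4×, from 65, 51, 30 and 24 reads. Both 4× libraries were below both 2× libraries, with means of 5.05 ± 0.945 and 2.43 ± 0.290 RPKM (SD, n = 2 each). The log2 fold change of -0.92 (SE 0.21) had a limma adjusted p of 0.0749. Leaving out 1 library at a time gave values from -1.09 to -0.74, none of them called.

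Cs7g28650, a TIP1-3, had 16.6 and 19.6 RPKM in 2× and 13.7 and 8.19 RPKM in 4×, from 160, 193, 132 and 75 reads. Here too the groups did not overlap, and limma put the change at -0.74 on the log2 scale (SE 0.21, adjusted p = 0.137). The 4× pools differed 1.67 times, and without 4×-1 the gene was called (log2 fold change -1.09, limma adjusted p = 0.00648), whereas without 4×-2 its log2 fold change was -0.39 (0.414). Cs5g25340, a TIP3-2, had the opposite direction at a low level. Its 1.31 and 1.66 RPKM in 2× and 2.60 and 2.47 RPKM in 4× rest on 10, 13, 20 and 18 reads, and the log2 fold change of 0.62 (SE 0.24) had a limma adjusted p of 0.292. With the abundant orange1.1t03005 at 0.03, the 4 tested TIPs included 2 genes lower in both 4× libraries, 1 higher in both and 1 that overlapped. Over all tested genes, 26.2% were lower in both 4× libraries and 17.5% higher in both. With only 4 genes, whether the TIPs share a trait cannot be decided.

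Of the NIPs, 3 of 8 were tested, and their log2 fold changes were 0.58, 0.58 and 0.25. Cs2g04370, a NIP1-2, had 3.86 and 4.15 RPKM in 2× and 7.21 and 5.38 RPKM in 4×, from 49, 54, 92 and 65 reads, so that both 4× libraries were above both 2× libraries. Limma put its log2 fold change at 0.58 (SE 0.19), with an adjusted p of 0.201. Cs6g21290 was named NIP2-1, a name that in rice belongs to a silicic acid channel, and had 4.84 and 8.70 RPKM in 2× and 7.68 and 12.97 RPKM in 4×. The pools of each ploidy differed 1.80 and 1.69 times, the groups overlapped, and the log2 fold change of 0.58 had an interval of -0.05 to 1.22 (limma adjusted p = 0.422). It was 0.19 without 2×-1 and 0.98 without 2×-2. Cs1g11140, a NIP6-1, named after a boric acid channel of *Arabidopsis* shoots, had 9.52 and 6.60 RPKM in 2× and 10.2 and 8.91 RPKM in 4×, with overlapping groups (log2 fold change 0.25, limma adjusted p = 0.637). Without 2×-2 this value was 0.00035 and without 2×-1 it was 0.50, so its direction rests on 1 library.

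The 3 SIPs, channels of the endoplasmic reticulum in *Arabidopsis*, had 10.3 to 21.5 RPKM per library. Cs5g26100 (SIP1-2) had 20.7 and 20.6 RPKM in 2× and 21.5 and 17.6 RPKM in 4×. Cs3g01900 (SIP1-1) had 15.2 and 15.6 RPKM in 2× and 15.6 and 11.7 RPKM in 4×. Cs6g16190 (SIP2-1) had 10.8 and 11.8 RPKM in 2× and 10.3 and 11.6 RPKM in 4×. Their groups overlapped, the log2 fold changes were -0.08, -0.18 and -0.04, and none was called (limma adjusted p = 0.684 to 0.933). The widest of their intervals reached from -0.52 to 0.16. The unclassified Cs9g19340 had 17.3 and 16.2 RPKM in 2× and 13.9 and 15.8 RPKM in 4×, with a log2 fold change of -0.17 (limma adjusted p = 0.639).

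The summed level of all 36 classified aquaporins was 886 ± 90.6 RPKM in 2× and 881 ± 55.2 RPKM in 4× (SD, n = 2 each), a ratio of 0.995. PIPs made up 74.3% to 75.9% of it in every library. Their sum was 717 and 610 RPKM in 2× and 688 and 639 RPKM in 4×, and the 2× libraries enclosed those of 4×. Within the PIPs, PIP2 genes summed to 475 and 409 RPKM in 2× and to 466 and 423 RPKM in 4×, and PIP1 genes to 236 and 193 RPKM in 2× and to 209 and 208 RPKM in 4×. TIPs summed to 166 and 141 RPKM in 2× and to 158 and 133 RPKM in 4×, which overlapped as well. SIP sums were 46.7 and 47.9 RPKM in 2× and 47.4 and 40.9 RPKM in 4×. The NIP sum, only 2.14% to 3.40% of the whole, was 20.3 and 21.6 RPKM in 2× and 26.5 and 28.6 RPKM in 4×, so that both 4× libraries lay above both 2× libraries, with a ratio of means of 1.31. No test was made on these sums.

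**Figure D3:**
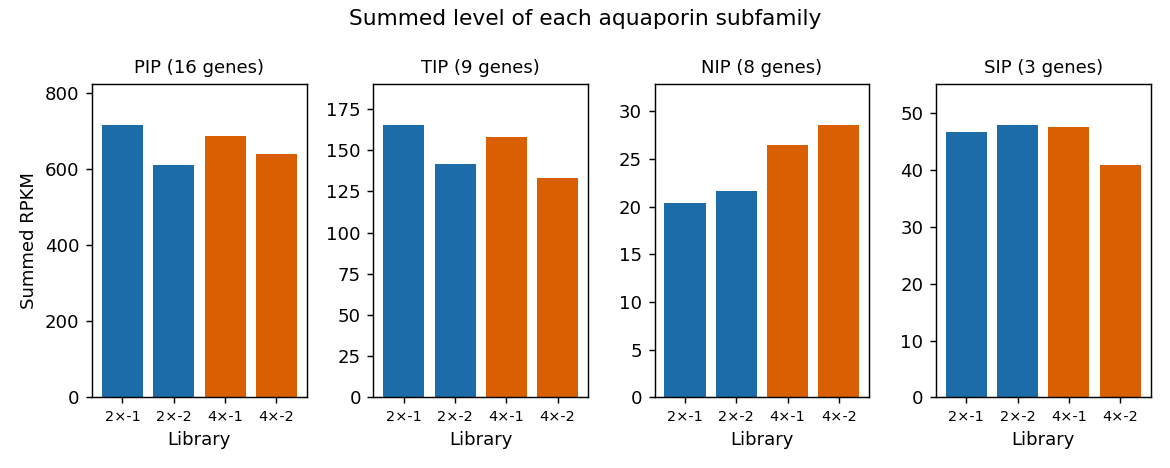
Summed RPKM of the PIP, TIP, NIP and SIP genes in each library (2× blue, 4× orange, axes from 0 and of different height). The sums of PIP, TIP and SIP overlap between 2× and 4×, and the NIP sums are 20.3 and 21.6 RPKM in 2× and 26.5 and 28.6 RPKM in 4×.

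The 15 members below the level for the test had few reads or none. No read was assigned in any library to 5 of them: Cs6g11660, Cs8g08830 and orange1.1t05588 among the PIPs, the TIP5-1 gene Cs9g14770 and the NIP7-1 gene Cs9g06260. A count of 0 allows up to 3 reads in a library, for counting error only. TIP5-1 and NIP7-1 are names of genes known from pollen and anthers in *Arabidopsis*. A further 8 members had 1 to 18 reads in all 4 libraries together. The PIP2-2 gene Cs6g11670 had 0, 3, 2 and 13 reads in 2×-1, 2×-2, 4×-1 and 4×-2, so most of its reads came from 1 library.

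The last 2 untested members had more reads in 2× than in 4×. Cs3g20790, a NIP5-1, the name of a boric acid channel in *Arabidopsis* roots, had 1.45 and 1.76 RPKM in 2× and 0.348 and 0.367 RPKM in 4×, from 25, 31, 6 and 6 reads. Per read of the library it was 4.51 times as high in 2× as in 4×, and the exact 95% interval, which covers only counting error, reached from 2.39 to 9.24. Cs4g19580, a TIP4-1, had 1.49 and 1.39 RPKM in 2× and 0.297 and 0.235 RPKM in 4×, from 20, 19, 4 and 3 reads, and its ratio was 5.38 with an interval of 2.38 to 14.3. Both 4× libraries were below both 2× libraries in either gene. On fewer reads, this also held for the untested Cs8g17900, while Cs6g17690 and Cs2g16610 had both 4× libraries above both 2× libraries. The share of such genes was not counted below the level for the test. When all detected genes were tested, limma called neither Cs3g20790 (adjusted p = 0.229) nor Cs4g19580 (0.224), and 0% of all genes were called in that test. Voom on the reads of all detected genes called neither (adjusted p = 0.0954 and 0.106), beside 0.274% of all genes. The NIP1-2 gene Cs2g04370, in contrast, had both 4× libraries above both 2× libraries.

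**Figure D4:**
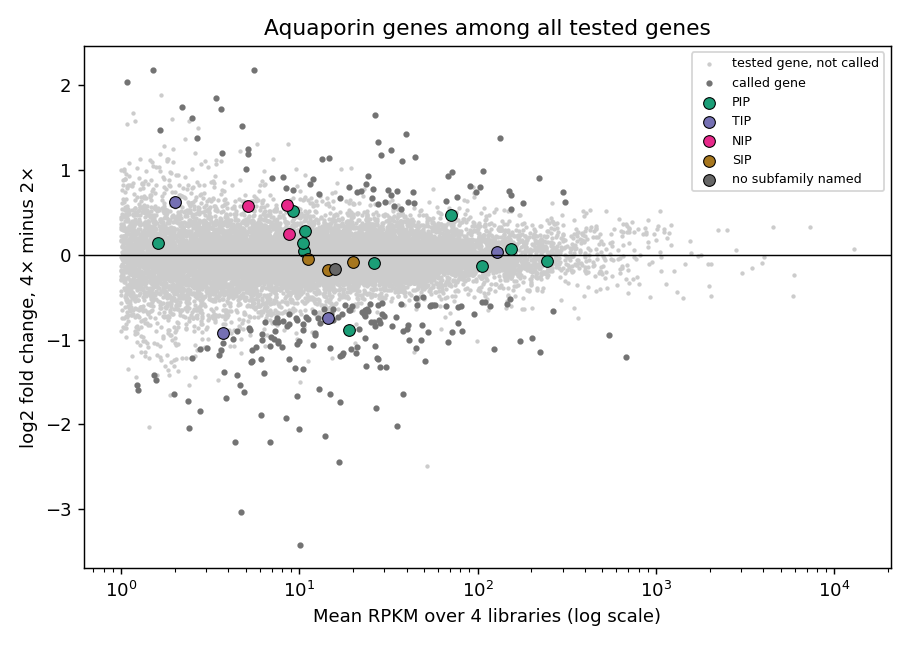
Log2 fold change (4× minus 2×) against the mean RPKM of the 4 libraries (log axis) for all 16157 tested genes, with called genes in dark grey and the 22 aquaporins as large points coloured by subfamily. The 4 aquaporins above 100 RPKM lie between -0.13 and 0.07, and the 7 aquaporins whose change reached 0.5 in size had mean levels below 30 RPKM.

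Genes with related tasks were looked up by words anywhere in their descriptions, which often list several proteins. Proton pumps of the tonoplast, which energise the vacuole in whose membrane the TIPs sit, were named in 30 genes, in 17 of them as the leading name. Of the 30, 26 were tested and limma called 0, with 1 at an unadjusted p below 0.05 and a median log2 fold change of -0.12. Words for plasma membrane proton pumps, which drive solute uptake across the membrane of the PIPs, were found in 17 genes, and 1 of the 10 tested was called, lower in 4×. The called gene, Cs4g03700, had 30.6 and 25.0 RPKM in 2× and 16.0 and 18.3 RPKM in 4×. Limma put its change at -0.68 on the log2 scale (SE 0.14, adjusted p = 0.0478). The median of the 10 was 0.05. By the words searched, only 2 of the 17 carry such a name as their leading name. Limma called 0 of the 1 tested, with 0 at an unadjusted p below 0.05. The search for leading names missed Cs4g03700, although its description opens with a proton-transporting ATPase of plasma membrane type. Boron transporters, exporters that work beside boric acid channels of the NIP type in *Arabidopsis*, numbered 5, and limma called 0 of the 3 tested, with 1 at an unadjusted p below 0.05 and a median log2 fold change of -0.03. No gene without the word aquaporin had the name of another intrinsic protein in its description.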

How the data were processed

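RNA of mature leaves was sequenced in 4 libraries, 2 of 2× and 2 of 4×, grouped by the sample titles. The authors aligned single-end reads to the *C. sinensis* genome with TopHat2 2.0.9 (Bowtie2 2.0.6, per the submitters' processing notes, which also name HTSeq 0.5.4p3 and DESeq 1.10.1) and deposited RPKM values per gene, made from uniquely mapped reads. Which annotation was counted, and whether strand was used: not given in the sources used here. Reads of *C. junos* were mapped to another species, so genes that differ between the species have less certain values.

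RPKM values were whole multiples of 1 read. Library totals were inferred from 48 genes whose values fit 1 read in each library, and the shortest gene length from 60 to 30000 bp that gave whole reads in all libraries (tolerance 0.001 reads) gave the reads of all 24073 genes above 0, up to a factor shared by length and reads. Replicates differed beyond sampling noise (chi-square per degree of freedom 6.21 in 2× and 4.67 in 4×).

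Genes averaging 1 RPKM or more were tested on log2(RPKM + 0.5) with limma 3.58.1 in R 4.3.3 (two-sided, trended eBayes, p-values adjusted over all tested genes by Benjamini-Hochberg, threshold 0.05). The test was run on simulated data with log2 fold changes of 1 or 2 in size, and it missed some of them. All tested aquaporins had smaller changes, for which the simulation gives no power. The p-values set the difference against the spread between 2 pools per ploidy. Trended eBayes moved the variance of each gene towards that of tested genes of similar level. Exact binomial intervals came from scipy 1.17.1. Any aquaporin could be named, with full statistics for called genes, those with the largest changes and the 5 most abundant. Alternatives were pseudocounts of 0.1 and 1, no filter, a mean of at least 3 RPKM, median-of-ratios scaling, robust eBayes, a replicate block, leaving out each library, and voom on recovered reads. Voom on all detected genes was added after seeing the data. Members, gene lists and tests were chosen with earlier results of these data known.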

Additional observations from a re-analysis of the deposited data

How the results depend on the processing

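No aquaporin was called with a pseudocount of 0.1, median-of-ratios scaling, robust eBayes or no filter. Over all genes, 0 were called by limma without a filter (2438 at an unadjusted p below 0.05), 404 by voom and 66 by voom on all detected genes, against 224 in the reported test. Voom, a pseudocount of 1 and a mean of at least 3 RPKM each called 1 aquaporin, Cs6g07970 (adjusted p = 0.0100, 0.0495 and 0.0368). Leaving out each library gave 77 to 264 calls over all genes, with 77 without 2×-2 and 144 without 2×-1, and 0 to 2 aquaporins, the 2 being Cs6g07970 and Cs7g28650 without 4×-1. The log2 fold changes changed sign with a library left out only in genes near 0: Cs7g25610 (-0.20 to 0.047), Cs7g31420 (-0.12 to 0.26), Cs8g16640 (-0.33 to 0.063), Cs5g03460 (-0.24 to 0.051), Cs7g31410 (-0.15 to 0.23), Cs6g11690 (-0.037 to 0.31), Cs4g19270 (-0.15 to 0.42), orange1.1t03005 (-0.12 to 0.18), Cs5g26100 (-0.22 to 0.059), Cs3g01900 (-0.38 to 0.017) and Cs6g16190 (-0.12 to 0.034). Among those that kept their sign, the values with a library left out reached from 0.0089 to 0.55 in Cs6g11700 and from 0.30 to 0.63 in Cs8g02530. The median over the 22 aquaporins ranged from -0.10 to 0.12 in these fits, and was -0.0075 with a mean of at least 3 RPKM. Median-of-ratios scaling changed the split of all calls from 64 higher and 160 lower to 69 higher and 109 lower, and the median of all genes from -0.03 to 0.00.

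The replicate numbers name separate pools and pair nothing (r = -0.046 between the deviations of 2×-1 and 4×-1 over 16157 genes, which are not independent). With the replicate number as a block, 832 genes were called over all genes and 5 aquaporins, Cs6g07970, Cs7g28650, Cs1g15440, Cs8g02530 and Cs6g21290. With 2 pools per ploidy, the intervals of the tested aquaporins reached 0.28 to 0.68 log2 units to either side before adjustment. An interval without 0 was not enough for a call after adjustment, since Cs6g07970 (-0.89) and Cs1g15440 (-0.92) were not called. The size needed for a call differed between genes with their standard error. The proton pump gene Cs4g03700, with an SE of 0.14, was called at -0.68. The causes of these differences were not tested.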
